A study of Mus musculus with 6 samples.

Results

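The genes described are 10 mouse interferon-inducible GTPases, namely the immunity-related GTPases Iigp1, Igtp, Irgm1 and Irgm2 and the guanylate-binding proteins Gbp2, Gbp3, Gbp4, Gbp6, Gbp7 and Gbp9. They were measured with MoGene 1.0 ST arrays on mouse KSL SLAM cells, sorted from bone marrow to enrich haematopoietic stem cells and gated as Lineage-, c-Kit+, Sca-1+, CD150+, CD48- and CD41-. The G-CSF mice received granulocyte colony-stimulating factor at 125 mcg/kg in 2 subcutaneous injections per day for 7 days, and the PBS mice received PBS alone for 7 days. There were 3 arrays of G-CSF mice and 3 of PBS mice, every array holding RNA of a separate pool of 5 to 10 animals, and the labels give no strain, age or genotype. Members were found by gene symbol in the platform annotation. Of the 10 genes, 6 had a probeset with their symbol alone (Iigp1, Irgm1, Gbp3, Gbp4, Gbp7 and Gbp9), and these are 6 of the 14994 genes tested. The other 4 lay on 3 probesets with several symbols, 1 shared by Irgm2 and Igtp, 1 shared by Gbp2 and Gbp2b, and 1 shared by Gbp6 with Gbp4, Gbp8, Gbp9, Gbp10 and Gbp11. A value of such a probeset cannot be assigned to 1 gene. All 9 probesets had a mean over the 6 arrays above the limit of 5.15 (log2 intensity) under which the dimmest 25% of probesets with 1 symbol were left out. The members were chosen with the G-CSF minus PBS differences of these same arrays in view, so their differences are given as a description, with no p-value for a single member. Counts of members past limma's thresholds stand only beside the shares of all genes.

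Interferons switch on both GTPase families in many cell types. Interferon gamma acts through its receptor and the kinases JAK1 and JAK2, and many of its target genes carry DNA sites called GAS. Type I interferons act through a receptor with the kinases JAK1 and TYK2, and many of their target genes carry a site called ISRE, to which factors such as IRF1 bind. Immunity-related GTPases and guanylate-binding proteins are known for acting on membranes around intracellular pathogens. In mice, Irgm1 is also known for a role in the maintenance of haematopoietic stem cells.

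Promoter sequences are shown because these genes are grouped by their induction by interferon. The shares of sites below describe that grouping, and a relation to the G-CSF difference was not tested. RefSeq windows (GRCm38.p6) of 250 bases before to 50 bases from the transcript start were at hand for 6 of the 10 genes, Igtp, Irgm1, Irgm2, Gbp2, Gbp3 and Gbp7. The ISRE core was searched on both strands as GAAA, any 2 bases, GAAA, and all 6 genes had it in a window, against 3.99% of the 27025 genes with a window. The GAS letters TTCNNNGAA, which read the same on both strands, were in windows of 3 of the 6 (Igtp, Irgm2 and Gbp7), against 9.55% of all genes. Gbp3 had 2 windows, and the ISRE core was in 1 of them. The windows below run 5′ to 3′ on the gene's strand from 30 bases before the first ISRE core match to 30 bases after the last, with the matched bases in capitals. They come from chr11:58199492-58199561 (Igtp, plus strand), chr11:58214883-58214952 (Irgm2, plus strand), chr11:48871405-48871480 (Irgm1, minus strand), chr3:142620574-142620643 (Gbp2, plus strand), chr3:142559969-142560044 (Gbp3, plus strand) and chr3:142530253-142530322 (Gbp7, plus strand).
Igtp: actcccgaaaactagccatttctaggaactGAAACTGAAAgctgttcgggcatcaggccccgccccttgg
Irgm2: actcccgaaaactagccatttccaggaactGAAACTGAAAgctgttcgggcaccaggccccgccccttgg
Irgm1: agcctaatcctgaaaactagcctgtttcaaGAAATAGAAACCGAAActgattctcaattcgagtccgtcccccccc
Gbp2: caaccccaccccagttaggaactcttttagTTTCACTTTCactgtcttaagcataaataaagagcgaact
Gbp3: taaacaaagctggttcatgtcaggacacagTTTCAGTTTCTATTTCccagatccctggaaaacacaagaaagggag
Gbp7: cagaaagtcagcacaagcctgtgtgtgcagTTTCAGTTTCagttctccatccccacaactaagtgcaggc

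The printed stretches of Igtp and Irgm2, genes that are neighbours on chromosome 11 in the RefSeq table and share 1 array probeset, had equal bases at 68 of 70 positions. Over their whole windows, aligned without gaps, 184 of 270 bases were equal (68.1%). In both, the GAS letters began 11 bases before the ISRE core. The same spacing of 11 bases was found in the windows of Tgtp1 and Tgtp2, other members of the immunity-related GTPase family. Irgm1 shared a run of 11 bases, gaaaactagcc, with Irgm2, and the printed Igtp window holds it too. Irgm1 and Gbp3 each had 2 overlapping ISRE core matches in 1 run. Gbp3 and Gbp7, neighbours on chromosome 3, shared a run of 13 bases, cagtttcagtttc, that covers an ISRE core match. The first matched base of the ISRE core lay at positions -64 (Irgm2) to -30 (Irgm1) from the transcript start in the 6 genes. These matches describe letters in the windows and say nothing of binding in these cells.

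The comparison of G-CSF with PBS asked which transcripts of the sorted fraction differ after 7 days of the cytokine. All 9 probesets of the 10 GTPases had lower means in the G-CSF arrays than in the PBS arrays. The differences (G-CSF minus PBS, log2 intensity) ran from -1.17 to -0.21 with a median of -0.68 over the 9 probesets and of -0.59 over the 6 with 1 symbol. The median over all 14994 genes tested was 0.0015. Negative differences were 49.7% of all genes tested and 54.5% of 1132 probesets with several symbols. A difference of -0.5 or lower was found in 5 of the 6 genes with their own probeset and in 6.3% of all genes, and one of -1 or lower in 2 of the 6 (Iigp1 and Gbp4) and in 0.734% of all genes. In 3 of the 6 genes and in 2 of the 3 shared probesets the highest G-CSF array was under the lowest PBS array. That pattern was found in 5.05% of the genes tested and in 5.12% of the probesets with several symbols, and its opposite, found in 5.77% of the genes tested, in 0 of the 9. Gbp4 is among the genes counted at -0.5, at -1 and without overlap. Its mean was 5.147 with G-CSF, under the filter limit of 5.152, and 6.24 with PBS. Its difference was -0.25 without PBS replicate 3. By limma, 0 of the 6 genes passed an adjusted p of 0.05 (Benjamini-Hochberg over all genes), a threshold that 0.0267% of the genes tested passed, and 2 of the 6 were under an unadjusted 0.05, both in the lower direction, where 3.3% of all genes were (6.04% in either direction). Of the shared probesets 0 of 3 passed, against 0.177% of those with several symbols. Because the members were chosen with this contrast known, nothing is read from these shares. The RNA came from pools of sorted cells, so fewer cells that carry a transcript and less RNA per cell cannot be told apart.

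**Figure D1:**
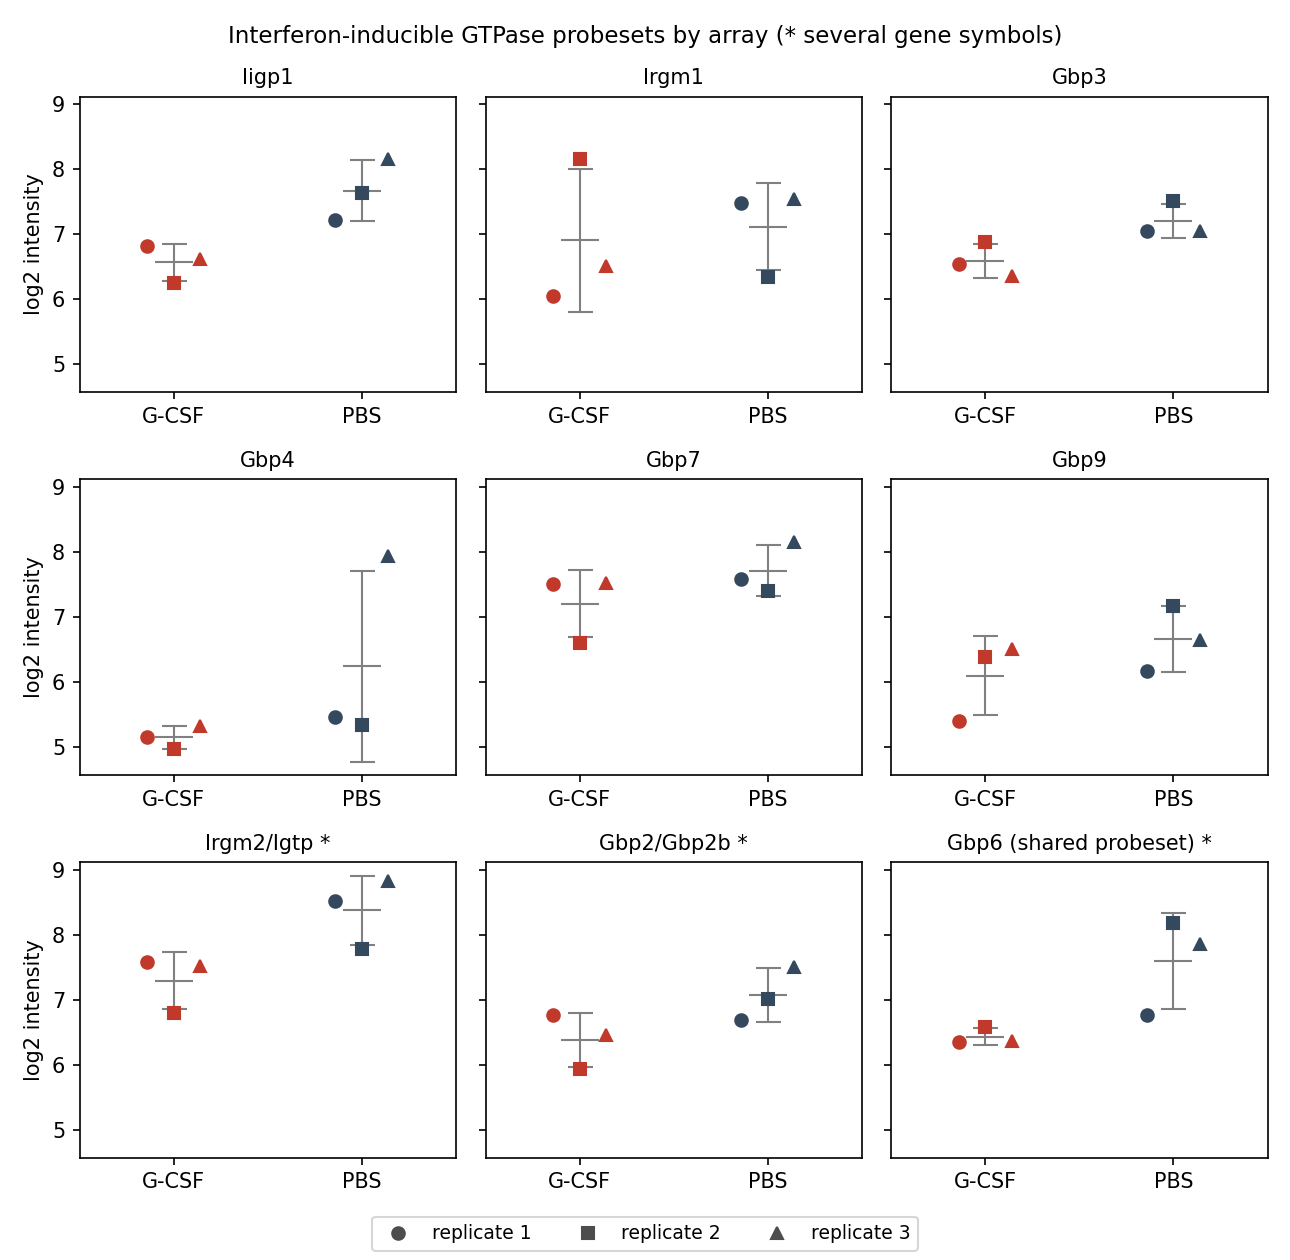
Log2 intensity of the 9 probesets (y axis) in the 3 G-CSF and 3 PBS arrays. Markers give the replicate, horizontal bars the group mean and error bars the SD (n = 3), and an asterisk marks a probeset with several gene symbols. All G-CSF arrays lie below all PBS arrays in 5 of the 9 panels (Iigp1, Gbp3, Gbp4, Irgm2/Igtp and the Gbp6 probeset), while for Irgm1 G-CSF replicate 2 is the highest array.

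Among the immunity-related GTPases, Iigp1 (also called Irga6) encodes an effector that accumulates on pathogen-containing vacuoles. Its log2 intensities were 6.82, 6.25 and 6.62 in the G-CSF arrays and 7.22, 7.64 and 8.15 in the PBS arrays. The groups did not overlap, with G-CSF replicate 1 nearest to PBS replicate 1. The means were 6.56 ± 0.29 with G-CSF and 7.67 ± 0.46 with PBS (SD, n = 3 each), a difference of -1.11 (SE 0.27), or 2.15-fold lower in G-CSF arrays. Counted from the most negative, its difference ranked 70 of the 14994 genes.

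Irgm2 and Igtp (also called Irgm3) encode regulatory GTPases that keep the effectors off the cell's own membranes. Their shared probeset had log2 intensities of 7.58, 6.79 and 7.52 with G-CSF and of 8.52, 7.79 and 8.83 with PBS. All 3 G-CSF arrays were lower than all 3 PBS arrays, and within each group replicate 2 was the lowest. The difference was -1.08 (SE 0.33), or 2.12-fold lower in G-CSF arrays.

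Irgm1, the third of these regulators, had the smallest difference of the 9 probesets. Its log2 intensities were 6.05, 8.15 and 6.51 in the G-CSF arrays and 7.48, 6.34 and 7.54 in the PBS arrays. The range of the G-CSF arrays enclosed that of the PBS arrays, since G-CSF replicate 2 was the highest of the 6 arrays and G-CSF replicate 1 the lowest. The difference was -0.21 (SE 0.57), with a 95% interval from -1.55 to 1.13. Leaving out 1 array gave values from -0.83 (no G-CSF replicate 2) to 0.21 (no G-CSF replicate 1), with -0.60 when PBS replicate 2 was left out and -0.01, -0.03 and -0.0025 when G-CSF replicate 3, PBS replicate 1 or PBS replicate 3 was. Its difference lay at the 20.8th percentile of all genes tested, against percentiles of 0.467 to 6.1 for the other 5 genes with a probeset of their own.

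Guanylate-binding proteins are large GTPases that assemble on bacteria and on vacuoles and promote the release of microbial ligands to inflammatory caspases. Gbp2, Gbp3 and Gbp7 belong to a cluster on chromosome 3 that also holds Gbp5 and Gbp2b. Gbp3 had log2 intensities of 6.53, 6.87 and 6.36 with G-CSF and of 7.05, 7.51 and 7.05 with PBS. The groups did not overlap and both had their highest value in replicate 2. The difference was -0.61 (SE 0.21), 1.53-fold lower in G-CSF arrays.

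Gbp7 had log2 intensities of 7.50, 6.61 and 7.52 with G-CSF and of 7.59, 7.41 and 8.15 with PBS. The groups overlapped, because PBS replicate 2 lay below G-CSF replicates 1 and 3. The difference was -0.51 (SE 0.31), and it shrank to -0.21 without G-CSF replicate 2 and to -0.29 without PBS replicate 3. The probeset shared by Gbp2 and Gbp2b was at 6.76, 5.94 and 6.46 with G-CSF and at 6.69, 7.02 and 7.51 with PBS. G-CSF replicate 1 lay just above PBS replicate 1, the 1 place where the groups crossed. The difference was -0.68 (SE 0.29), 1.61-fold lower in G-CSF arrays. Gbp2b also had a probeset of its own, at a mean of 4.90 ± 0.25 with G-CSF and 5.07 ± 0.25 with PBS, under the limit for dim probesets.

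Gbp4, Gbp6 and Gbp9 belong to a second cluster on chromosome 5, with Gbp8, Gbp10 and Gbp11. Gbp4 had log2 intensities of 5.14, 4.97 and 5.33 with G-CSF and of 5.45, 5.34 and 7.94 with PBS. The groups did not overlap, but G-CSF replicate 3 and PBS replicate 2 were almost equal and PBS replicate 3 stood far above the other arrays. The difference was -1.10 (SE 0.65) with all arrays and -0.25 without PBS replicate 3, and 2 of the 3 G-CSF arrays lay under the limit of 5.15. Most of the Gbp4 difference came from that 1 array.

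Gbp9 had log2 intensities of 5.40, 6.38 and 6.51 with G-CSF and of 6.16, 7.17 and 6.65 with PBS. The groups overlapped, as PBS replicate 1 lay below G-CSF replicates 2 and 3. The difference was -0.57 (SE 0.37) and became -0.22 without G-CSF replicate 1 and -0.31 without PBS replicate 2. The probeset that holds Gbp6 was at 6.35, 6.58 and 6.37 with G-CSF and at 6.77, 8.18 and 7.86 with PBS. The 3 G-CSF arrays lay close together (SD 0.13) and below all PBS arrays (SD 0.74). The difference of -1.17 (SE 0.35) was 2.25-fold lower in G-CSF arrays, and it cannot be assigned to Gbp6 because 5 other symbols share the probeset.

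Levels of different probesets are not comparable on an array, so no order of abundance among the GTPases is given. Within groups, independently of the difference between them, the probesets did not vary as 1 block. Deviations of the 6 arrays from their group means were compared between probesets by Pearson's r, as a description over 6 arrays prepared by the same protocol, per the labels. Of 36 pairs, 19 had a positive r, and the median over all 36 was 0.12. Without Irgm1, 16 of 28 pairs had a positive r, and the median over the 28 was 0.39. Iigp1, Gbp4, Gbp7 and the Irgm2/Igtp and Gbp2/Gbp2b probesets had positive r in all 10 of their pairs, from 0.55 (Iigp1 with Irgm2/Igtp) to 0.97 (Iigp1 with Gbp2/Gbp2b). Gbp3, Gbp9 and the Gbp6 probeset also had positive r among themselves, from 0.44 to 0.66 (the Gbp6 probeset carries the Gbp9 symbol as well), while Gbp3 had r of -0.94 with Irgm2/Igtp. These subsets were formed with the values in view. PBS replicate 3 was the highest PBS array in 6 of the 9 probesets, and G-CSF replicate 2 was the lowest G-CSF array in 5 and the highest in 3.

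**Figure D2:**
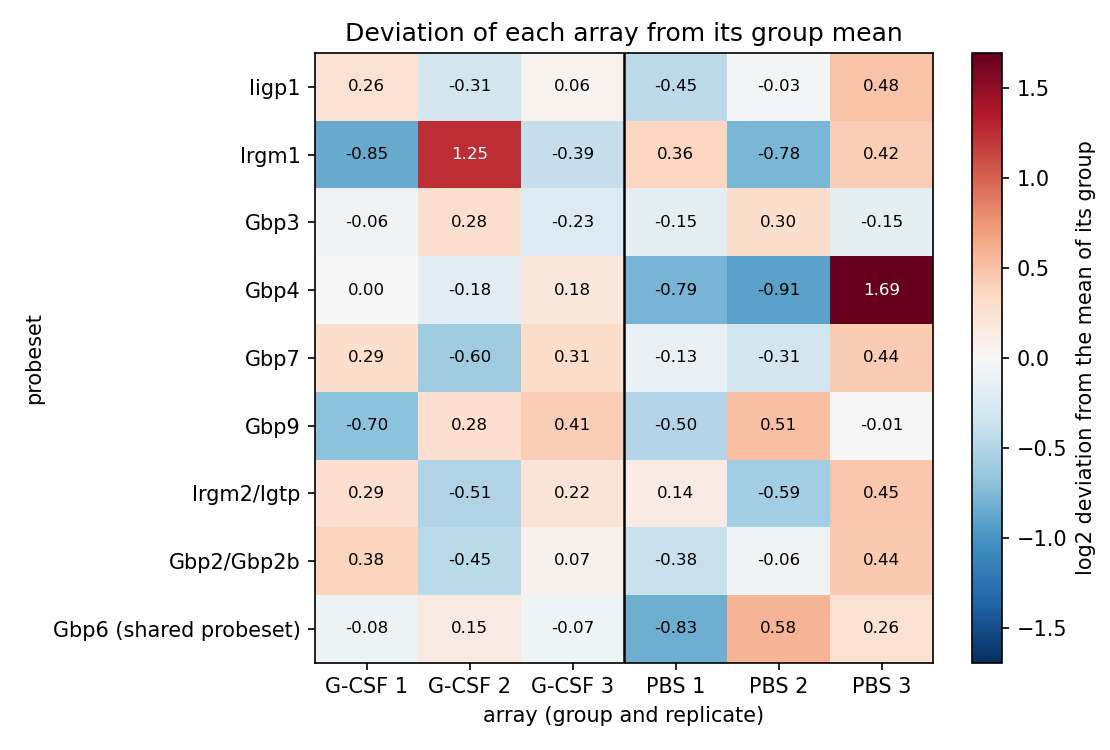
Deviation of each array (columns, 3 G-CSF then 3 PBS) from the mean of its group, in log2 intensity, for each of the 9 probesets (rows). The largest deviations are those of Gbp4 in PBS replicate 3 (1.69) and of Irgm1 in G-CSF replicate 2 (1.25), and in G-CSF replicate 2 Iigp1, Gbp4, Gbp7, Irgm2/Igtp and Gbp2/Gbp2b were below their group mean while Irgm1, Gbp3, Gbp9 and the Gbp6 probeset were above it.

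The non-member genes whose deviations were most like the mean deviation of the 6 genes with their own probesets were Rmi1 (r = 1.00), Mrpl18, 1700037C18Rik, Poglut2 and Cnih1 (0.99 or more each, over 6 arrays). In all, 380 of 14988 non-member genes had an r over 0.9, so with 6 arrays this likeness does not single out any gene. Of these 5 genes, Rmi1 differed between the groups by 0.31 (SE 0.46) and Mrpl18, a mitochondrial ribosomal protein gene, by 0.55 (SE 0.28), opposite in sign to the GTPases.

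The list of other interferon-inducible GTPases held 23 genes of these and related families, 11 with a probeset of their own and 9 above the limit for dim probesets. By limma over all genes, 0 of the 9 passed an adjusted p of 0.05 and 1 in each direction had an unadjusted p under 0.05. Their median difference was -0.25, against 0.0015 over all genes tested, with 6 negative and 3 positive. Gbp8, in the chromosome 5 cluster, was at 6.16, 6.64 and 7.14 with G-CSF and at 7.30, 8.10 and 8.25 with PBS, a difference of -1.24 (SE 0.33, limma adjusted p = 0.474) without overlap. Gbp11 of the same cluster differed by -0.25 (SE 0.22, adjusted p = 0.966), and Gbp5 of the chromosome 3 cluster by -0.47 (SE 0.27, adjusted p = 0.932). Gm12250, which is Irgb10, and Gm4951, also an immunity-related GTPase gene, differed by -0.59 (SE 0.29) and -0.68 (SE 0.42). The genes without a negative difference were Irgc1 (0.05, SE 0.20), Irgq (0.03, SE 0.16) and the very large inducible GTPase gene Gm1966. Irgc1 and Irgq stand in this list by family, and their induction by interferon was not tested. The own probeset of Gm1966 was higher in all G-CSF arrays (0.77, SE 0.24, limma adjusted p = 0.654). A pair of probesets that Gm1966 shares with Gm4070, Gm8989, Gm8979 and Gvin1 had negative differences of -0.32 (SE 0.30) and -0.21 (SE 0.30) with overlapping groups, so probesets carrying this symbol differed in sign. A probeset shared by Gm4070 and Gvin1 differed by -0.12 (SE 0.19). Mx2, of the antiviral Mx family, differed by -0.12 (SE 0.36), and Mx1, under the limit for dim probesets, by -0.08 (SE 0.19).

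Tgtp1 and Tgtp2 (Irgb6) fall outside the rule for naming genes, since they share 2 probesets, and they were picked with their values known. On the first probeset the log2 intensities were 8.71, 9.05 and 8.76 with G-CSF and 9.87, 10.26 and 9.76 with PBS. On the second they were 8.87, 9.47 and 9.16 with G-CSF and 10.21, 10.64 and 10.13 with PBS. On both probesets every G-CSF array was lower than every PBS array. The differences were -1.12 (SE 0.19) and -1.16 (SE 0.22), and in limma's fit over the 1132 probesets with several symbols the adjusted p was 0.353 and 0.434. Ifi47, on a probeset shared with Olfr56, differed by -0.34 (SE 0.28). A pair of probesets shared by 9930111J21Rik1 and 9930111J21Rik2 had positive differences of 0.48 and 0.44 (SE 0.27 and 0.26).

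**Figure D3:**
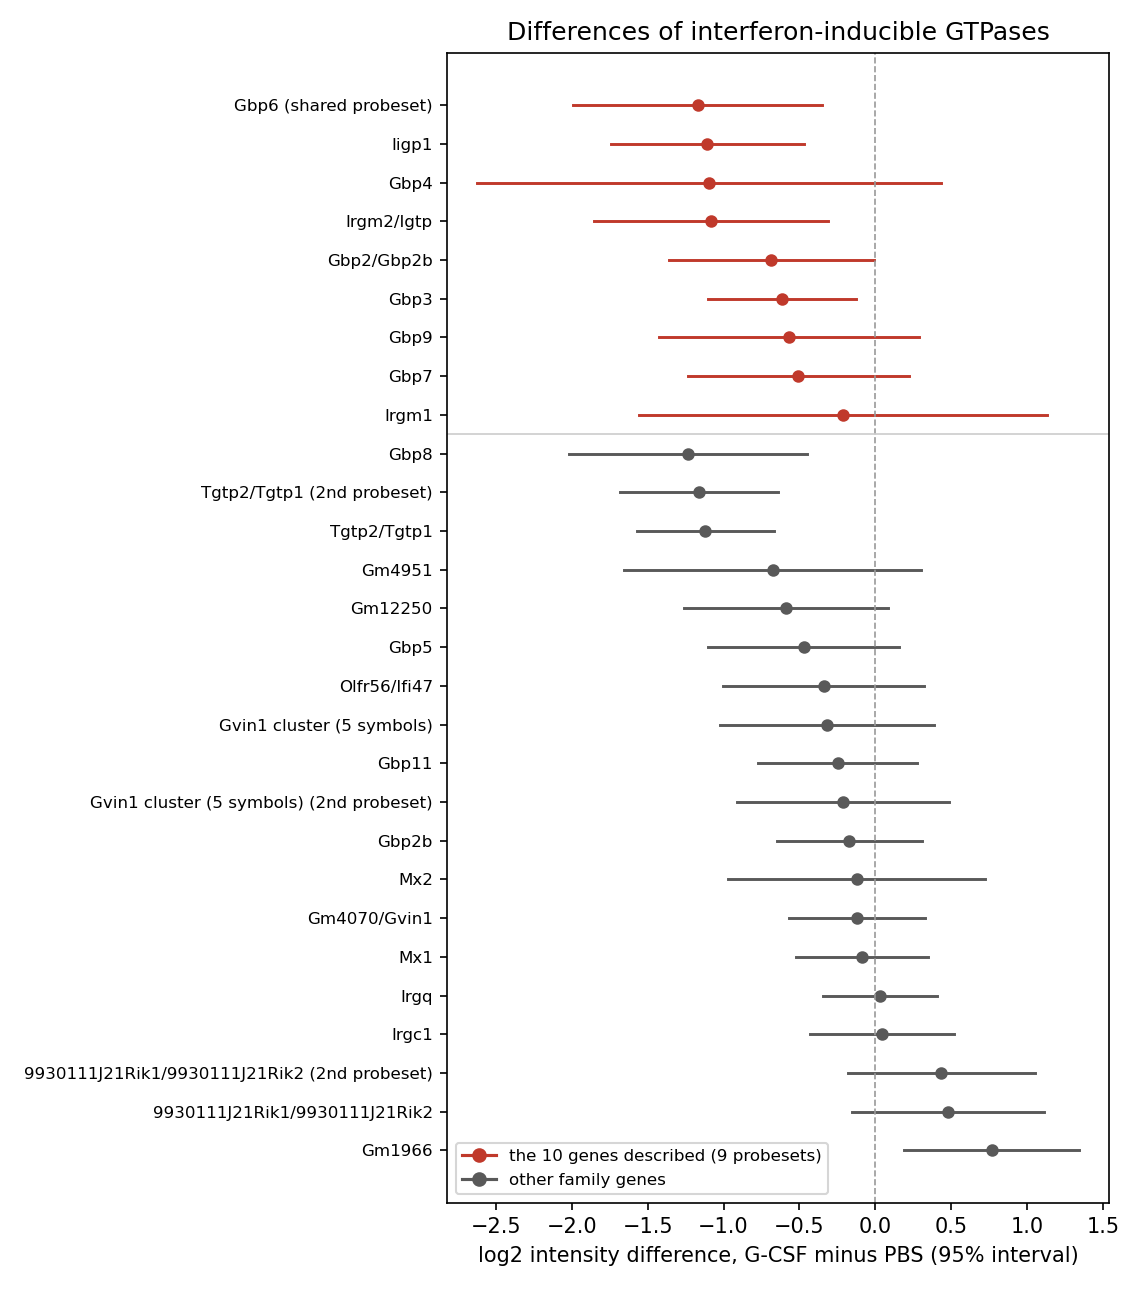
Log2 intensity difference, G-CSF minus PBS (x axis), with limma's 95% interval for the 9 probesets of the 10 GTPases (red) and for other genes of these families, shared and dim probesets included (grey). Points left of 0 are lower in the G-CSF arrays. The intervals of Irgm1 and Gbp4 are the widest of the red set, and Gm1966 has the highest difference shown (0.77).

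The interferon gamma receptor pathway, which lies upstream of these genes, had 17 of 18 listed genes tested, and 0 passed an adjusted p of 0.05 by limma, with 1 at an unadjusted p under 0.05 (Socs3). Its median difference was -0.14, with 10 negative and 7 positive genes. The receptor chain gene Ifngr1 was at 8.69, 9.80 and 8.80 with G-CSF and at 7.96, 8.33 and 8.998 with PBS (difference 0.67, SE 0.37, limma adjusted p = 0.927). The other chain, Ifngr2, was at 7.21, 7.10 and 7.27 with G-CSF and at 7.37, 8.34 and 7.19 with PBS (difference -0.44, SE 0.30). The groups overlapped for both chains. The kinase genes Jak1 (0.0069, SE 0.23) and Jak2 (-0.31, SE 0.25), the transcription factor gene Irf1 (-0.27, SE 0.20), the co-factor gene Batf2 (0.28, SE 0.19) and the feedback inhibitor gene Socs1 (-0.15, SE 0.16) had overlapping groups. Socs3, a feedback inhibitor that G-CSF signalling also induces, was higher in all G-CSF arrays (0.52, SE 0.18, adjusted p = 0.723).

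Genes of the type I interferon receptor pathway had a median difference of -0.13 (8 of 9 tested, 6 negative), with 0 past the threshold by limma and 1 at an unadjusted p under 0.05. That gene was Usp18, an interferon-induced inhibitor of the receptor, which was lower in all G-CSF arrays (5.57, 5.37 and 5.69 with G-CSF, 5.94, 6.17 and 5.91 with PBS, difference -0.46, SE 0.16, adjusted p = 0.741). The receptor genes Ifnar1 (0.26, SE 0.17) and Ifnar2 (-0.15, SE 0.30), the kinase gene Tyk2 (-0.22, SE 0.23), and the transcription factor genes Stat2 (-0.11, SE 0.23), Irf9 (-0.12, SE 0.19) and Irf7 (0.31, SE 0.18) had overlapping groups.

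Other interferon-stimulated genes were spread around 0. Of 42 listed, 36 were tested, 19 had negative and 17 positive differences, and the median was -0.03. By limma 0 passed the threshold. At an unadjusted p under 0.05, 3 were lower, as were 3.3% of all genes tested, and 0 were higher. In 5 of the 36 genes the groups did not overlap with G-CSF lower, against 5.05% of all genes tested. In 0 of the 36 they did not overlap with G-CSF higher, against 5.77%. The RNA-binding antiviral gene Ifit3 was at 5.80, 4.82 and 5.07 with G-CSF and at 6.22, 6.08 and 6.69 with PBS (difference -1.10, SE 0.29, limma adjusted p = 0.455). Ifit2 of the same family differed by -0.94 (SE 0.40), the antiviral enzyme gene Rsad2 by -0.56 (SE 0.23) and the antibody receptor and ubiquitin ligase gene Trim21 by -0.61 (SE 0.22), each without overlap and each not past the threshold.

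The autophagy list holds conjugation genes, whose products are known in mice to help load these GTPases onto vacuoles, and others such as Ulk1. It had a median difference of -0.08 (13 of 14 tested), with 0 past the threshold by limma and 0 at an unadjusted p under 0.05. Gabarap was higher in all G-CSF arrays (0.46, SE 0.21), Ulk1 was lower in all (-0.18, SE 0.14), and Gabarapl1 (-0.42, SE 0.25) and Atg3 (0.34, SE 0.36) overlapped. Inflammasome and pyroptosis genes, which act downstream of guanylate-binding proteins, had a median of 0.16 (8 of 10 tested), with 0 past the threshold and 1 higher at an unadjusted p under 0.05. Il1b, the interleukin 1 beta gene, was at 9.06, 8.50 and 7.15 with G-CSF and at 6.60, 5.71 and 6.29 with PBS (difference 2.03, SE 0.48, limma adjusted p = 0.378), opposite in sign to the GTPases. The DNA sensor gene Aim2 differed by -0.54 (SE 0.37), the adaptor gene Pycard by 0.33 (SE 0.23) and the cytokine gene Il18 by -0.35 (SE 0.22).

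**Figure D4:**
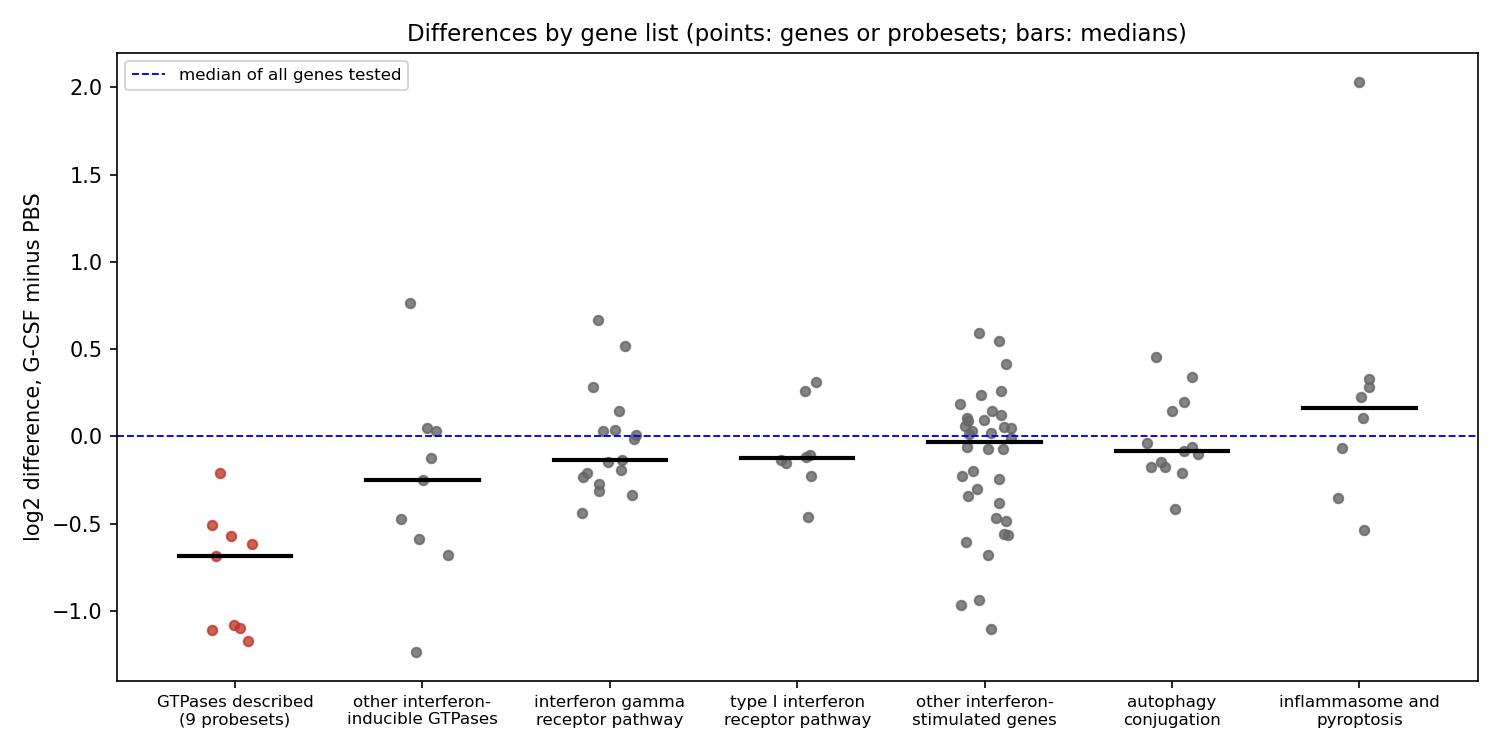
Log2 difference, G-CSF minus PBS (y axis), of the 9 GTPase probesets (red) and of the tested genes of 6 other lists (grey), with each list's median as a black bar and the median of all genes tested as a dashed line. The 9 probesets have a median of -0.68, and the 6 of them with 1 symbol have -0.59. The grey lists hold genes with their own probeset only, so shared probesets of other family genes are left out. The other interferon-inducible GTPases have a median of -0.25, and the remaining lists lie between -0.14 and 0.16.

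Markers of some other cells differed between the groups. Means of log2 intensity over the 12 mature neutrophil markers ran from 10.18 to 10.82 in the G-CSF arrays and from 8.32 to 9.27 in the PBS arrays, and summed intensities from 29935 to 37236 with G-CSF and from 9841 to 17250 with PBS. The chemokine receptor gene Cxcr2, a neutrophil marker, was at 10.60, 11.83 and 10.81 with G-CSF and at 7.17, 8.68 and 8.48 with PBS (difference 2.97, SE 0.47, limma adjusted p = 0.177). By limma 0 markers of any of the 9 lists passed an adjusted p of 0.05, as did 0.0267% of all genes tested. At an unadjusted p under 0.05, 11 of the 12 neutrophil and 8 of the 8 progenitor markers were higher, as were 410 of the 14994 genes tested. The neutrophil marker that was not higher was Ly6g (difference -0.19, SE 0.48), with overlapping groups. All 8 granulocyte-monocyte progenitor markers were higher in every G-CSF array, as were 5.77% of all genes tested (summed intensity 1928 to 5292 with G-CSF and 690 to 915 with PBS). The 8 tested monocyte, macrophage and dendritic cell markers summed to 2266 to 3017 with G-CSF and 1226 to 1961 with PBS. In 4 of these 8 every G-CSF array was higher, and the groups overlapped in the rest. Lyz2 was the brightest of the 8 in every array and weighs most in these sums. The 10 tested stem cell fraction markers, which check the labelled gate, summed to 4189 to 5444 with G-CSF and 5618 to 6619 with PBS, with lower means in all G-CSF arrays, and Ly6a was not analysed here. Kit, the c-Kit receptor gene of the gate, was at 9.28, 9.21 and 8.63 with G-CSF and at 10.28, 9.92 and 9.85 with PBS (difference -0.98, SE 0.23, limma adjusted p = 0.373), and fell short of the threshold though the groups did not overlap. The 6 tested megakaryocyte markers were lower too, with sums of 359 to 389 with G-CSF and 513 to 702 with PBS, and among them the platelet factor gene Pf4 differed by -1.92 (SE 0.37, limma adjusted p = 0.26). T and NK cell markers overlapped (sums of 434 to 512 with G-CSF and 430 to 484 with PBS), and 6 of their 12 genes lay under the limit for dim probesets. In the B cell list Vpreb1, of the pre-B cell receptor, was at 8.81 in G-CSF replicate 2 and 9.02 in PBS replicate 3. It was at 5.59 to 6.38 in the other 4 arrays. Irgm1 stood highest in G-CSF replicate 2, where Gbp4 was lowest (4.97), and Gbp4 stood highest in PBS replicate 3. The B cell genes Cd79b, Pax5 and Igll1 ran from 6.39 to 6.72, 5.82 to 6.26 and 6.12 to 6.69 over the 6 arrays. The erythroid, and the endothelial and stromal lists overlapped between groups. RMA intensities have no zero, so no marker is at 0. The part of these other cells in the GTPase differences was not tested.

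**Figure D5:**
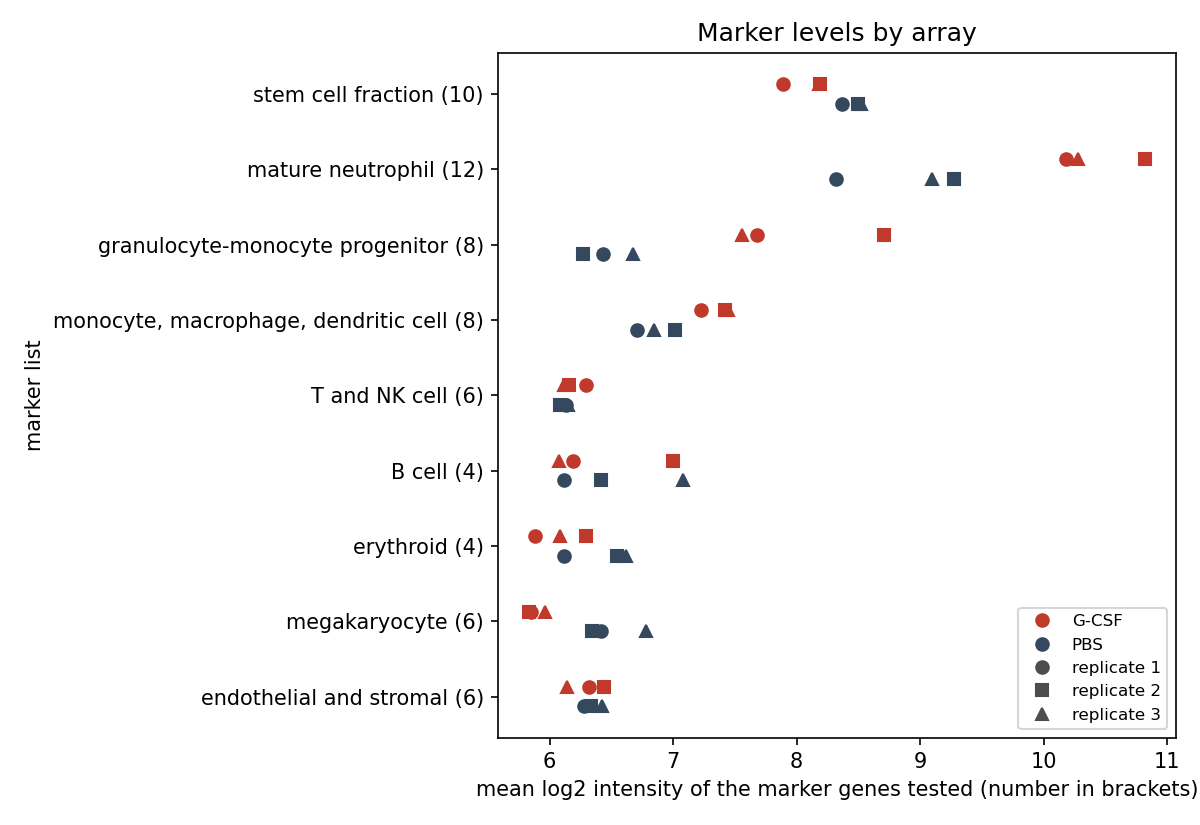
Mean log2 intensity of the tested genes of 9 marker lists (x axis) in each array, G-CSF in red above PBS in dark blue, with markers for the replicate. Neutrophil, progenitor and monocyte lists are higher and stem cell and megakaryocyte lists lower in all 3 G-CSF arrays.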

How the data were processed

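The deposited values are intensity values of 35554 probesets on 6 arrays, which the authors made by RMA (per the submitters' processing notes), with software, version and genome build not given in the sources used here. They ran from 2.7 to 19069, a linear scale, so log2 was taken. Gene names came from the platform annotation (21789 with 1 symbol, 1621 with several, 12144 not listed). Those with 1 symbol were kept unless among the dimmest 25% by mean over all arrays, with the brightest probeset for each gene, which left 14994 genes. Groups were compared with limma 3.58.1 in R 4.3.3 (lmFit and eBayes, no covariate, two-sided, Benjamini-Hochberg). SEs of member probesets with several symbols use the prior of that fit, and adjusted p-values of other such probesets come from a separate fit over 1132. The fit was tested on simulated data. The small number of arrays limits precision, and p-values measure the spread between pools of mice.

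Members and gene lists were chosen with earlier results of these data known. Named are all members, every other listed interferon-inducible GTPase with its own probeset, up to 4 genes per other list with the smallest p (up to 3 per marker list), a set of pathway genes whatever their values and the 5 genes most like the members. Alternatives were the filter, normalization, log offset, variance model, array weights, probeset rule, replicate block, a minimum fold and leaving out each array. Some listed genes are not reported here. Promoter windows are from RefSeq. Figures were drawn with matplotlib 3.10.9.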

Additional observations from a re-analysis of the deposited data

How the results depend on the processing

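The member median ran from -0.88 to -0.57 over 15 alternatives. Of the 9 probesets 8 or 9 had negative differences, the exception being Irgm1 without G-CSF replicate 1 (0.21). The filter, variance model, probeset rule and replicate block could not change the member differences. With these the median was -0.68 by construction. In the alternatives that kept all 6 arrays, 5 probesets had no overlap between groups. Only the normalization alternatives could change the order of a probeset's values there, so the others could not alter this count. The share of 5.05% of all genes also holds for 6 arrays. The number was 5 to 7 when 1 array was left out. With fewer arrays such separation is easier for any gene, and no share over all genes is given there. When 1 array was left out, the difference ran from -1.55 to -0.25 for Gbp4, from -0.83 to 0.21 for Irgm1, from -1.59 to -0.88 for the Gbp6 probeset, from -0.82 to -0.22 for Gbp9 and from -0.66 to -0.21 for Gbp7. The number of genes past the threshold was 4 higher and 0 lower. It was 12 higher with quantile normalization again, 2 with centring on the array median, 2 with log2(value + 16), 2 with a minimum fold of 1.5 and 0 to 6 when 1 array was left out (6 without G-CSF replicate 1 and 0 without each of the other 5), and 0 lower in each. The median of the other interferon-inducible GTPases was -0.53 with the dimmest 50% left out. That of the interferon gamma receptor pathway was -0.14 to 0.0034 when 1 array was left out (0.0034 without G-CSF replicate 3). The causes were not tested. In 933 comparisons of named genes of the other lists with an alternative, 0 passed the threshold (smallest adjusted p = 0.0523), and 19 changed sign. The replicate numbers give no known pairing. Deviations of same-numbered arrays correlated at 0.29, 0.02 and 0.19, and those of differently numbered arrays at -0.28 to 0.10. Whether same-numbered arrays share a source of variation was not tested. With the replicate number as a block, which cannot change the member median (-0.68), 5 genes were higher. Differences of dim genes such as Gbp4 are limited by signal near the filter limit.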

Other observations

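In the list of other interferon-inducible GTPases, which includes Irgq by family, 11 genes had a RefSeq promoter window. Of these, 7 held the ISRE core letters (GAAA, any 2 bases, GAAA, on either strand) and 4 held the GAS letters TTCNNNGAA. The ISRE core was in windows of Gbp2b, Gbp5, Tgtp1, Tgtp2, Gm12250, Gm1966 and 9930111J21Rik1, and was not found in those of Ifi47, Irgq, Gm5431 and 9930111J21Rik2. The genes with the letters differed in both directions between G-CSF and PBS arrays, from -1.16 and -1.12 on the 2 probesets of Tgtp1 and Tgtp2 to 0.77 on the own probeset of Gm1966, while 2 probesets that Gm1966 shares with other symbols differed by -0.32 and -0.21. Gm1966 had the letters at position -163 from its transcript start, Gbp5 at -165 and Gbp2b at -137. Gm12250 had them at -91 and -46, Tgtp1 at -77, Tgtp2 at -70 and 9930111J21Rik1 at 27. Apart from the -46 match and that of 9930111J21Rik1, these lay farther upstream than in any of the 6 GTPases with a window described above. Gm12250 differed by -0.59, and the probesets shared by 9930111J21Rik1 and 9930111J21Rik2 by 0.48 and 0.44. A relation between position and difference was not tested. The own probesets of Gbp5 and Gbp2b had negative differences of -0.47 and -0.17, that of Gbp2b being under the limit for dim probesets.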
